A study of Mus musculus with 30 samples.

Results

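The semaphorins, plexins, ephrins and Eph receptors of mouse brain endothelial cells were followed across 5 ages. Members were the genes of the count tables whose symbol starts with Sema3 to Sema7, Plxna to Plxnd, Epha or Ephb, or Efna or Efnb and a number, with Sema3g and Efnb2 left out. The rule found 52 of 48795 genes: 19 semaphorins, 9 plexins, 14 Eph receptors, 7 ephrins and 3 antisense RNAs of Plxna4 that carry its name (Plxna4os1, Plxna4os2 and Plxna4os3). The 49 protein-coding members were 26 ligands and 23 receptors. The study sequenced RNA from primary brain endothelial cells of untreated wild-type (WT) mice. The ages were 2, 6, 12, 18 and 24 months, with 3 libraries from males and 3 from females at each. No transgene, deletion or treatment was carried by any group. The design set expression against age by linear regression after correction for sex. The design text calls the libraries biological replicates, but the strain, the way the cells were isolated and any pooling of mice are not given in the sources used here, so the p-values measure the spread between these libraries.

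These 4 families are contact and short-range guidance signals. Secreted semaphorins (class 3) bind neuropilins, which signal through plexins, while most semaphorins of classes 4 to 6 are membrane proteins that bind plexins directly, and plexins change adhesion and the cytoskeleton of the cell that carries them. Ephrins sit on the surface of one cell and activate Eph receptor tyrosine kinases on its neighbour, with signals that can run in both directions, and in blood vessels Eph-ephrin pairs take part in the setting apart of arteries and veins.

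Counts in genes ranged from 24140980 to 50464366 per library. The endothelial markers (10 of 10 tested) summed to between 15137 and 20530 CPM (depth-scaled counts, with TMM library sizes) in every library, against at most 1228 CPM for 10 pericyte markers, 369 CPM for 6 smooth muscle markers, 1284 CPM for 7 astrocyte markers, 1956 CPM for 7 oligodendrocyte markers, 1305 CPM for 7 microglia markers and 9.8 CPM for 8 neuron markers. The 5 choroid plexus markers reached 6951 CPM in 1 library (male 12-month replicate 1). In bulk RNA, fewer cells of a type and less RNA per cell cannot be told apart. Of all reads, 3.82 to 6.61% fell outside annotated genes in the 2-month libraries, against 7.99 to 13.1% in the 18-month and 4.62 to 9.09% in the 24-month ones. The 3 female libraries of 6 months stood apart from the males of their age: long genes (exon length above the median) took 44.3 to 47.6% of their counts, against 51.8 to 56.1% in the 3 males. The lowest 12-month library, at 46.6%, lay within the range of these females. Results that rest on the 3 libraries are given with and without them.

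Each family was led by 1 or a few genes. To compare genes, CPM was divided by the summed exon length in kilobases and averaged over the 30 libraries. Efna1, a GPI-anchored A-type ephrin, stood at 144 CPM per kb, Sema3c, a secreted semaphorin, at 136 CPM per kb, and Ephb4, an Eph receptor known from veins, at 47 CPM per kb. After these came Sema7a, a GPI-anchored semaphorin that binds integrins and Plxnc1, at 18.6 CPM per kb, Sema6a at 14.3 CPM per kb, Efnb1 at 13.5 CPM per kb, Sema4c at 11.1 CPM per kb and Sema6b at 8.78 CPM per kb. The ranges of Efna1 and Sema3c overlapped over the libraries, and so did those of Sema7a, Sema6a, Efnb1, Sema4c and Sema6b, so the order within each of these sets is that of the means only. The plexins were lower and more even: Plxnd1, an endothelial plexin that binds Sema3e, stood at 7.02 CPM per kb, Plxna2 at 6.33 CPM per kb, Plxna1 at 2.11 CPM per kb and Plxnb2 at 1.9 CPM per kb. Among Eph receptors other than Ephb4, Epha4 stood at 5.36 CPM per kb and Epha2 at 4.45 CPM per kb.

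At the other end, Ephb2, Epha10, Epha6, Sema4f, Plxna4os2 and Plxna4os3 did not pass the filter on low counts, which left 46 members tested, 45 of them protein-coding. Plxna4os3 had no count in any library. Ephb2 had none in 21 of 30 libraries, Epha10 none in 24, Epha6 none in 28 and Sema4f none in 23. A library with no count allowed a level of up to 0.124 CPM (3 counts) in the shallowest one, a limit of counting error only. Sema3e, the ligand of Plxnd1, averaged 0.106 CPM per kb, Sema3a 0.0778 CPM per kb and Plxnc1, the Sema7a receptor, 0.279 CPM per kb, all far below the leading genes of their families. The remaining low members, each under 1 CPM per kb on average, were the semaphorins Sema5a, Sema3d, Sema4a, Sema6c, Sema4d, Sema4b, Sema4g and Sema5b, the plexins Plxnb1, Plxna4, Plxna3 and Plxnb3, the ephrins Efnb3, Efna4, Efna2 and Efna5, and the Eph receptors Ephb6, Epha7, Epha3, Ephb3, Ephb1, Epha1, Epha8 and Epha5. Sema3b and Sema3f, both secreted, stood at 1.7 and 1.51 CPM per kb, Sema6d at 3.09 CPM per kb and Efna3 at 1.65 CPM per kb.

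**Figure D1:**
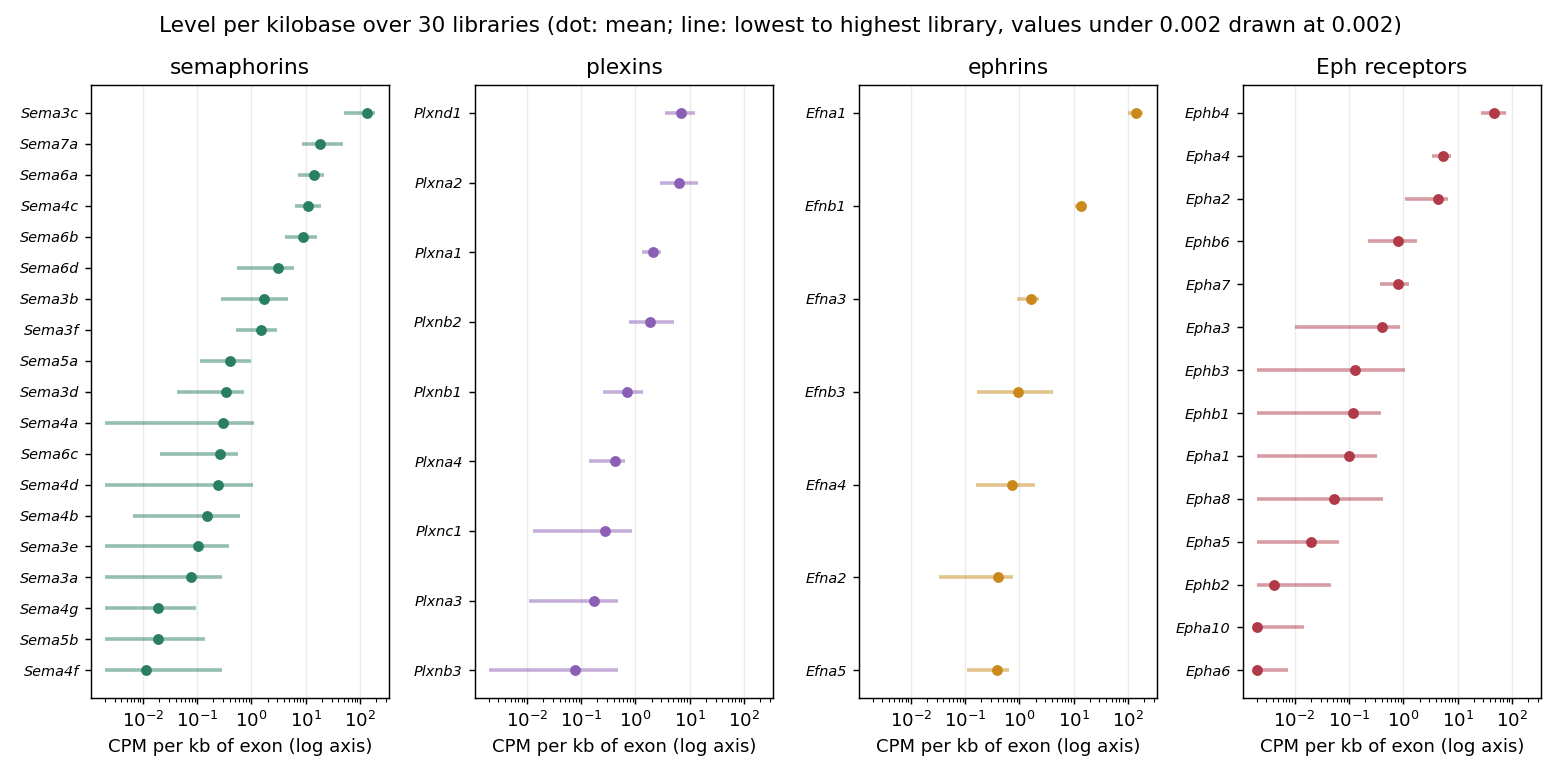
Level of each of the 49 protein-coding members in CPM per kb of exon on a log axis, with the mean over 30 libraries (dot) and the lowest to highest library (line), by family. Efna1 (144 CPM per kb), Sema3c (136 CPM per kb) and Ephb4 (47.0 CPM per kb) led their families, and the plexins stayed at or under 7.02 CPM per kb on average.

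With age, 1 ephrin fell and 1 semaphorin and 1 plexin rose in the linear fit that the design names. Efna1 fell, and Sema4c, a transmembrane semaphorin that binds Plxnb2, and Plxna2, a receptor of class 6 semaphorins, rose. A slope is given as the fitted log2 change over the 22 months from 2 to 24, and a gene is called where edgeR's quasi-likelihood test, adjusted over 16844 genes, gave p under 0.05. The 2 rising members of 46 tested stood against 5.72% of all genes called as rising, and the 1 falling member against 5.22% of all genes called as falling, so the shares were near or under the background. Of the 46 members, 10 had an unadjusted p under 0.05. The median slope of the 46 was 0.22 log2 against 0.03 over all genes tested, with 28 slopes above 0 and 18 below. Ligands gave 2 calls of 25 tested and receptors 1 of 20.

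Efna1 (chromosome 3, 89271733 to 89281142, GRCm38) stood at 251 to 330.1 CPM (median 291) at 2 months, 245 to 341 (median 313) at 6 months, 241 to 308 (median 273) at 12 months, 183 to 289.9 (median 206) at 18 months and 199.7 to 259.7 (median 226) at 24 months. The 18- and 24-month libraries lay mostly under those of 2 and 6 months, and 1 library of 24 months lay above the lowest of 2 months. The slope was -0.48 ± 0.10 log2 (SE, edgeR adjusted p = 0.00261), and it was called with each of the 30 libraries left out in turn (-0.52 to -0.45 log2, adjusted p 0.00173 to 0.00674). The slope was -0.40 ± 0.15 log2 in the 15 male libraries alone (adjusted p = 0.23, edgeR) and -0.55 ± 0.14 in the 15 female libraries alone (adjusted p = 0.0438). The test of the difference between the sexes' slopes gave an edgeR adjusted p of 0.93. Beside it, reads outside genes moved with age as given above, and with their share as a covariate the slope was -0.28 ± 0.11 log2 (adjusted p = 0.214). Astrocyte and choroid plexus markers moved the same way, with 3 of 7 and 3 of 5 falling. The astrocyte markers summed to 468 to 1284 CPM at 2 months and 201 to 604 CPM at 24 months, and the choroid plexus markers to 899 to 4248 CPM and 618 to 2262 CPM. With the neuron and glia markers as a covariate the slope of Efna1 was -0.49 ± 0.10 log2 (adjusted p = 0.00148), and the part of the choroid plexus markers was not tested. With the share of counts in long genes as a covariate instead, the slope was -0.36 ± 0.09 log2 (adjusted p = 0.00641). Efna1 also fell at 18 months (-0.38 ± 0.11 log2 against 2 months, adjusted p = 0.0146) and at 24 months (-0.36 ± 0.11 log2, adjusted p = 0.0373). The 24-month call was lost in 13 of the 30 fits that left out 1 library, with adjusted p up to 0.112. The contrasts of 6, 12, 18 and 24 months all share the 2-month libraries.

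Sema4c (chromosome 1, 36548639 to 36558349) stood at 30.5 to 68.6 CPM (median 44) at 2 months, 29 to 54 (median 43.5) at 6 months, 33 to 54.8 (median 41.9) at 12 months, 47.8 to 86.3 (median 65.5) at 18 months and 50.2 to 71.7 (median 56.6) at 24 months. Male 2-month replicate 3 was the highest of its age, and the ranges at 2 and 24 months overlapped. The slope was 0.56 ± 0.17 log2 (edgeR adjusted p = 0.0341). It was 1.01 ± 0.24 log2 in female libraries alone (adjusted p = 0.0279) and 0.11 ± 0.18 log2 in male libraries alone (adjusted p = 0.881), while the test of this difference in edgeR gave an unadjusted p of 0.00665 and an adjusted p of 0.876. With reads outside genes as a covariate the slope was 0.19 ± 0.17 log2 (adjusted p = 0.768), with long-gene share 0.30 ± 0.12 (adjusted p = 0.0982), without the 18-month libraries 0.41 ± 0.16 (adjusted p = 0.166) and without the 3 female 6-month libraries 0.42 ± 0.17 (adjusted p = 0.104). Leaving out 1 library lost the call in 6 of 30 fits (2-month replicates 2, 4 and 5, 6-month replicate 4, 18-month replicate 1 and 24-month replicate 4), with adjusted p up to 0.0726. Of its exon bases 7.27% also lie in a transcript on the other strand (D430040D24Rik), and these libraries keep no strand, so reads there cannot be told apart.

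Plxna2 (chromosome 1, 194618218 to 194816869) stood at 61.1 to 132 CPM (median 77.9) at 2 months, 49.6 to 127 (median 84) at 6 months, 54.9 to 152 (median 81.5) at 12 months, 88.2 to 247 (median 176) at 18 months and 80.6 to 129 (median 110.0) at 24 months. The 18-month libraries were the highest, with 5 of 6 above every 2-month library, and the ranges at 24 and 2 months overlapped. The slope was 0.80 ± 0.27 log2 (edgeR adjusted p = 0.0486), close to the threshold. At 18 months Plxna2 was 1.06 ± 0.25 log2 above 2 months (adjusted p = 0.00302) and at 24 months 0.38 ± 0.24 log2 (adjusted p = 0.402). The departure from a straight line was called (adjusted p = 0.0331). Without the 18-month libraries the slope was 0.42 ± 0.21 log2 (adjusted p = 0.327) and the departure had an adjusted p of 0.955. The slope lost its call in 20 of 30 fits that left out 1 library (adjusted p 0.021 to 0.0871) and in 9 of 13 other alternatives. Those were RLE scaling, no filter, reads outside genes or long-gene share as a covariate, and males or females alone. The rest left out the 2-month, the 18-month or the 3 female 6-month libraries. With reads outside genes as a covariate the slope was 0.30 ± 0.28 log2 (adjusted p = 0.769). The departure lost its call in 4 of 11 other alternatives, long-gene share among them.

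Markers of mural cells moved with age beside these 2 rising genes. Of 10 pericyte markers 4 rose (Kcnj8, Abcc9, Rgs5 and Notch3) and none fell, and their summed level ran from 449.6 to 749 CPM at 2 months and from 475 to 1228 CPM at 24 months. No smooth muscle marker of 5 tested was called (sums of 76.7 to 334 CPM at 2 months and 73.4 to 369 CPM at 24 months). With the mural markers as a covariate the slope of Plxna2 was 0.95 ± 0.31 log2 (adjusted p = 0.0437), that of Sema4c 0.58 ± 0.20 log2 (adjusted p = 0.0687) and that of Efna1 -0.43 ± 0.12 log2 (adjusted p = 0.0195).

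**Figure D2:**
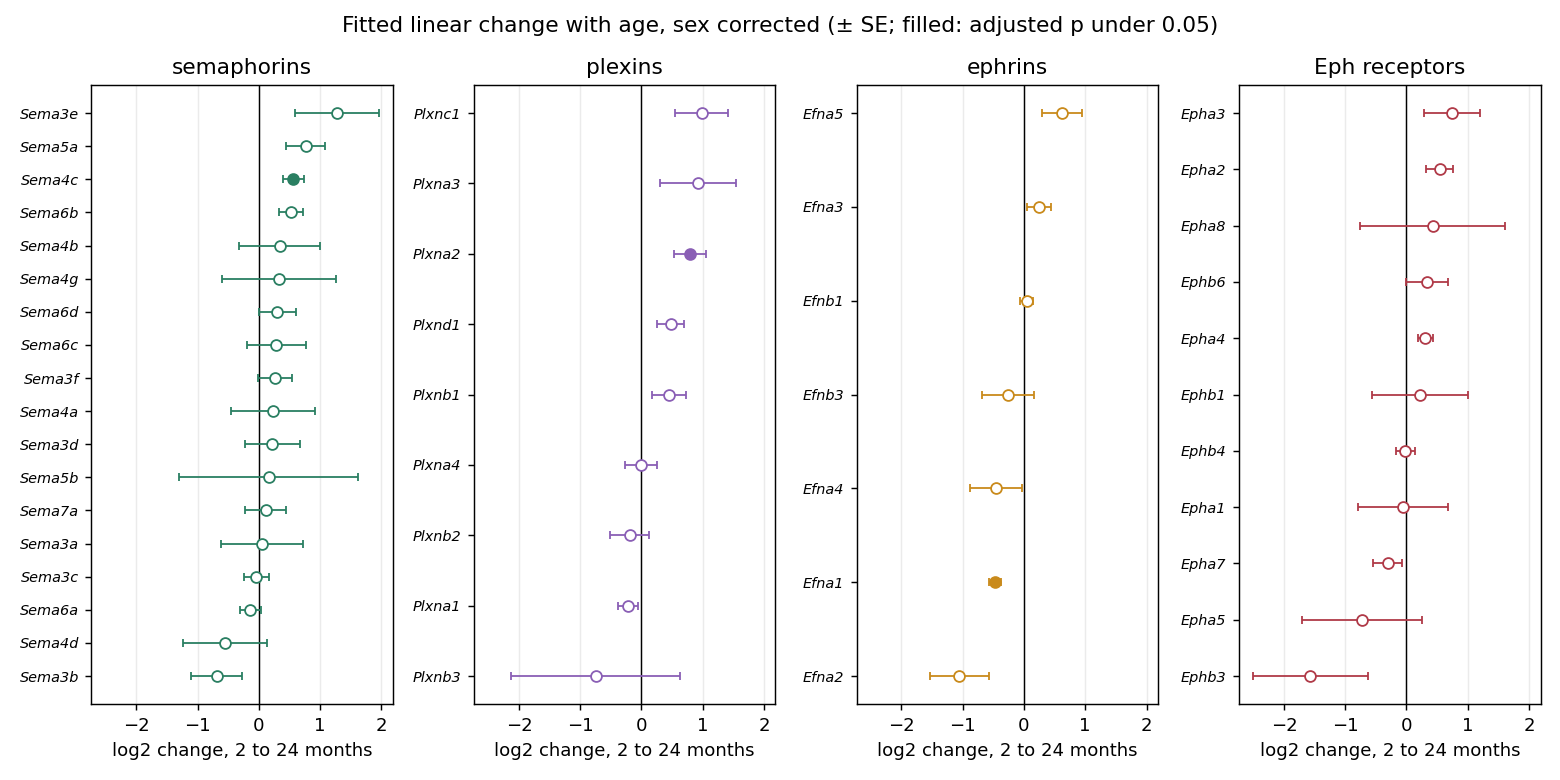
Fitted linear log2 change from 2 to 24 months, corrected for sex, of the 45 protein-coding members tested, with standard errors, filled where the edgeR adjusted p was under 0.05. Filled points were Efna1 (-0.48), Sema4c (0.56) and Plxna2 (0.80), and wide bars belong to members with few counts.

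The members that were not called on the slope included all 11 tested Eph receptors. Epha4, which binds ephrins of both types, stood at 27.7 to 44.2 CPM (median 38.5) at 2 months, 30.2 to 45.7 (median 41.1) at 6 months, 27.9 to 60.3 (median 44.3) at 12 months, 45.3 to 55.3 (median 47.7) at 18 months and 38.5 to 48.1 (median 45.6) at 24 months. Its 18-month libraries all lay above its 2-month ones (0.39 ± 0.14 log2, edgeR adjusted p = 0.0432), while its slope of 0.31 ± 0.12 log2 had an adjusted p of 0.112. Epha2, a receptor of Efna1, stood at 12.7 to 29.8 CPM (median 16) at 2 months, 5.1 to 21.1 (median 17.3) at 6 months, 8.99 to 25.5 (median 20.2) at 12 months, 18.4 to 30.8 (median 25.3) at 18 months and 22.8 to 26.9 (median 24.3) at 24 months. The slope of Epha2 was 0.54 ± 0.22 log2 (unadjusted p = 0.0202, edgeR adjusted p = 0.113), so the opposite signs of Efna1 and Epha2 rest on 1 called gene. Ephb4 stood at 186 to 368 CPM (median 227) at 2 months, 127 to 254 (median 194) at 6 months, 140.3 to 269 (median 204) at 12 months, 173 to 284 (median 228) at 18 months and 187 to 249 (median 227) at 24 months. Its slope was -0.02 ± 0.16 log2 (adjusted p = 0.959), and male 2-month replicate 3 was the highest of the 30 libraries.

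The other 2 leading ephrins gave no call. Efnb1, a transmembrane ephrin of the X chromosome, stood at 37 to 57.6 CPM (median 45.2) at 2 months, 39.9 to 52.1 (median 48.3) at 6 months, 37.1 to 59.3 (median 45.1) at 12 months, 36.7 to 49.6 (median 44.7) at 18 months and 40.2 to 57.1 (median 49.5) at 24 months. Its groups overlapped at every age, with a slope of 0.04 ± 0.10 log2 (edgeR adjusted p = 0.84) and no call in any test run. Efna3 stood at 2.8 to 3.72 CPM (median 3.23) at 2 months, 3.28 to 4.39 (median 4.08) at 6 months, 2.89 to 5.62 (median 4.57) at 12 months, 3.05 to 4.95 (median 4.89) at 18 months and 2.18 to 5.04 (median 4.14) at 24 months, with a slope of 0.24 ± 0.19 log2 (adjusted p = 0.454). Of the exon bases of Efna3, 14.1% also lie in an antisense transcript (Gm15998).

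At the ends of the age range, 24 against 2 months, 2 of 46 members were called, against 8.35% of all genes. Sema7a rose and Efna1 fell. Sema7a (chromosome 9, 57940112 to 57962865) stood at 27.9 to 43.6 CPM (median 33.1) at 2 months, 61.5 to 159 (median 103) at 6 months, 37.7 to 48.8 (median 40.1) at 12 months, 29.6 to 91.2 (median 55.9) at 18 months and 58.5 to 77.9 (median 69.5) at 24 months. Every 6-month and every 24-month library lay above all 6 libraries of 2 months, the highest values being those of the females of 6 months, and the 18-month libraries reached from within the 2-month range to above the 24-month one. Against 2 months the level was 1.60 ± 0.22 log2 higher at 6 months (edgeR adjusted p = 1.69e-05), 0.27 ± 0.21 at 12 months (adjusted p = 0.569), 0.71 ± 0.21 at 18 months (adjusted p = 0.0197) and 0.96 ± 0.21 at 24 months (adjusted p = 0.00379).

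The 24-month rise of Sema7a was called in all 30 fits that left out 1 library and in each of the 10 other alternatives run (0.94 to 1.19 log2, adjusted p 0.00015 to 0.00729). That includes, each as a covariate, reads outside genes, long-gene share, the mural markers and the neuron and glia markers. No other marker set was used as a covariate. Low means at 2 and 12 months beside higher ones at 6 and 24 were not particular to Sema7a. From 2 to 24 months Limk1 averaged 3.65, 14.4, 3.25, 5.88 and 13.6 CPM, and Ptpn11 51.8, 114, 59.8, 85.6 and 92.3 CPM. Both are from the pathway lists below, where others, such as Rock1 (138, 139, 156, 134 and 138 CPM), lacked this pattern. Whether the handling of the libraries by age had a part was not tested. Its slope over all 5 ages was 0.11 ± 0.33 log2 (adjusted p = 0.871) and its departure from the line had an edgeR adjusted p of 2.12e-05. Without the 3 female 6-month libraries the slope was 0.75 ± 0.18 log2 (adjusted p = 0.00641), Sema7a was then the only rising member called, and the 6-month rise over 2 months was 0.90 ± 0.20 log2 (adjusted p = 0.0171). Plxnc1, its plexin, had a slope of 0.98 ± 0.43 log2 (unadjusted p = 0.0289, adjusted p = 0.14) at levels of 0.107 to 7.37 CPM.

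**Figure D3:**
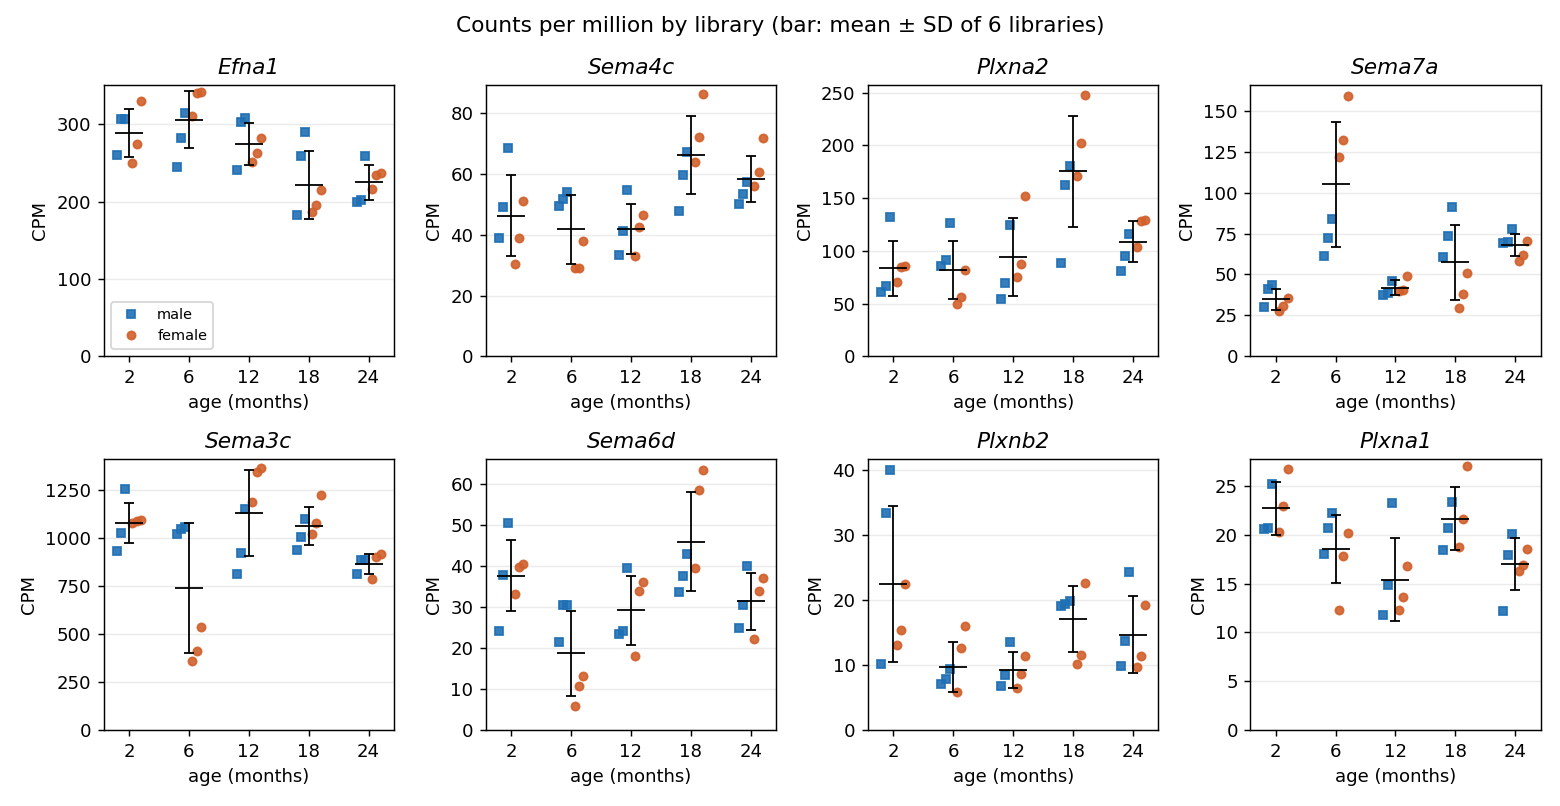
CPM of 8 members in each library by age in months, males as squares and females as circles spread sideways for legibility, with the mean and SD of the 6 libraries. Sema7a lies between 58.5 and 77.9 CPM at 24 months against 27.9 to 43.6 CPM at 2 months, and the 3 female libraries of 6 months stand apart in Sema7a, Sema3c and Sema6d.

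Between 2 and 6 months 3 plexins and 1 semaphorin fell and Sema7a rose. Of 46 members 5 were called, against 8.76% of all genes: Sema7a up, and the plexins Plxnb2, Plxna4 and Plxnb3 and the class 6 semaphorin Sema6d down. Over the 46, 36 log2 differences were below 0 and 10 above, with a median of -0.45 against -0.02 over all genes. Genes of 5 to 10 kb of exon, to which 23 of the 46 members belong, had a median of -0.15 over all genes of that length and -0.57 over those members.

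Plxnb2 (chromosome 15, 89155549 to 89180788), a receptor of class 4 semaphorins, stood at 10.2 to 40 CPM (median 19) at 2 months, 5.83 to 16 (median 8.61) at 6 months, 6.52 to 13.6 (median 8.57) at 12 months, 10.1 to 22.6 (median 19.3) at 18 months and 9.78 to 24.3 (median 12.5) at 24 months. It was -1.16 ± 0.31 log2 against 2 months at 6 months (edgeR adjusted p = 0.0199) and -1.26 ± 0.31 at 12 months (adjusted p = 0.0217), and the 2-month range reached from within to far above the 6-month one. Without the 3 female libraries of 6 months the first difference was -1.62 ± 0.38 log2 (adjusted p = 0.0253). With the mural markers as a covariate it was -0.81 ± 0.30 log2 (edgeR adjusted p = 0.0912). The highest library, male 2-month replicate 1 at 40 CPM, was also the highest of all in summed astrocyte (1284 CPM) and microglia markers (1305 CPM). Male 2-month replicate 3 came next in Plxnb2, at 33.5 CPM. The falls of Plxnb2 and Plxnb3 are not given here with the neuron and glia markers as a covariate.

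Plxna4 (chromosome 6, 32144268 to 32588192), a receptor of Sema6a and, with neuropilin, of class 3 semaphorins, stood at 5.98 to 9.03 CPM (median 7.22) at 2 months, 1.95 to 7.15 (median 3.12) at 6 months, 4.32 to 8.12 (median 5.37) at 12 months, 6.32 to 8.34 (median 6.48) at 18 months and 3.25 to 7.95 (median 5.32) at 24 months. It was -1.02 ± 0.26 log2 at 6 months (edgeR adjusted p = 0.014), and -0.49 ± 0.27 log2 without the 3 female libraries (adjusted p = 0.537). Plxnb3, a receptor of Sema5a that had at most 3.16 CPM in any library, had 0 counts in all 6 libraries of 6 months against 0 to 94 counts in those of 2 months, 4 of which had any. Against a limit of 3 counts per library the mean of 6 months was at least 8.97-fold lower (edgeR adjusted p = 0.0274). Without male 2-month replicate 1, the highest at 3.16 CPM, the bound was at least 5.64-fold. The call was lost in 4 of 30 fits that left out 1 library (adjusted p up to 0.0577): female 2-month replicate 4 and each of the 3 females of 6 months. Without all 3 of these 6-month females the adjusted p was 0.256.

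Sema6d (chromosome 2, 124089969 to 124667770), a ligand of Plxna1, stood at 24.2 to 50.6 CPM (median 38.8) at 2 months, 5.83 to 30.5 (median 17.3) at 6 months, 18.1 to 39.6 (median 29) at 12 months, 33.7 to 63.3 (median 41.2) at 18 months and 22.2 to 40.1 (median 32.2) at 24 months. It was -1.05 ± 0.28 log2 at 6 against 2 months (edgeR adjusted p = 0.0202) and -0.40 ± 0.25 log2 without the 3 female libraries (adjusted p = 0.621), so that call rested on them. With long-gene share as a covariate the difference was -0.59 ± 0.19 log2 (adjusted p = 0.069).

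The 250 bases before the annotated start are shown for 3 of the members called between 2 and 6 months, 1 that rose and 2 that fell. The windows are chr9:57939862-57940111 (Sema7a, plus strand), chr2:124089719-124089968 (Sema6d, plus strand) and chr15:89180789-89181038 (Plxnb2, minus strand). They come from RefSeq on GRCm38.p6, read 5′ to 3′ along the gene, with 43 of 52 members matched by symbol. The upstream one of the 2 listed starts was taken for Sema6d and for Plxnb2. Capitals mark matches, on either strand, to 5 short motifs. The GC box, bound by Sp-type factors, was searched as GGGCGG. The core promoter's TATA box was searched as TATAAA. The core of sites for ETS factors, which are active in endothelium, was searched as CCGGAA. The site of the AP-1 factors Jun and Fos was searched as TGACTCA. The site of KLF factors, some of which respond to flow in endothelium, was searched as CACCC.
Sema7a: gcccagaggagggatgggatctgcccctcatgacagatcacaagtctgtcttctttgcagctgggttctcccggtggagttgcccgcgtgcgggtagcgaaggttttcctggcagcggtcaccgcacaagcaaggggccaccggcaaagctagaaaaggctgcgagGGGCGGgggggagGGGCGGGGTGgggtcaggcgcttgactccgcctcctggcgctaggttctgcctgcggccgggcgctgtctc
Sema6d: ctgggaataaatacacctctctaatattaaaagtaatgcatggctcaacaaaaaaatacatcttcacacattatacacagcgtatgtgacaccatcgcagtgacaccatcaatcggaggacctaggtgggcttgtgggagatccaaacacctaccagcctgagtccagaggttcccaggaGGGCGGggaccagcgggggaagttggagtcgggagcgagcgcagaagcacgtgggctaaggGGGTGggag
Plxnb2: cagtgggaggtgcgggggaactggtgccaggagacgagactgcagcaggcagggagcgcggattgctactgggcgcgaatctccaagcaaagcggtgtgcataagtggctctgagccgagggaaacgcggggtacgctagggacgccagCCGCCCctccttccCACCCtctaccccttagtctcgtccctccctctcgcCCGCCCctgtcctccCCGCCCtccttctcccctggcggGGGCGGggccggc
The GC box was found in 33.0% of the 32536 distinct windows of that length, the KLF motif in 52.1%, the TATA box in 12.3%, the ETS core in 12.1% and the AP-1 motif in 4.45%. All 3 windows held the GC box, with 2 matches for Sema7a, 1 for Sema6d and 4 for Plxnb2, and each held 1 match to the KLF motif, which in Sema7a overlaps a GC box. None held the TATA box, the ETS core or the AP-1 motif, which says only that these letters are not in the windows. The share of G and C was 66.4% for Sema7a, 52.4% for Sema6d and 69.2% for Plxnb2, so the rising and the falling genes shared these letters.

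At 12 months 2 of 46 members were called against 2 months, against 2.94% of all genes, and both were plexins that were lower: Plxnb2, given above, and Plxna1. Plxna1 (chromosome 6, 89316314 to 89362620), a receptor of Sema6d and, with neuropilin, of class 3 semaphorins, stood at 20.2 to 26.7 CPM (median 21.8) at 2 months, 12.3 to 22.2 (median 19.1) at 6 months, 11.8 to 23.2 (median 14.2) at 12 months, 18.4 to 27 (median 21.1) at 18 months and 12.2 to 20.1 (median 17.4) at 24 months. Its 12-month level was -0.56 ± 0.16 log2 against 2 months (edgeR adjusted p = 0.0436), with male 12-month replicate 3 within the 2-month range and the other 5 below it. At 24 months all 6 libraries lay below those of 2 months, by -0.42 ± 0.16 log2 (adjusted p = 0.0976, not called). An antisense transcript (Gm26811) covers 10.7% of its exon bases.

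At 18 months 7 of 46 members were called against 2 months, against 18.8% of all genes, the highest background of the 4 ages. Epha4, Plxnd1, Plxna2, Sema7a and Sema4c were higher and Efna1 and Sema3b lower. Plxnd1 (chromosome 6, 115954811 to 115995005) stood at 25.6 to 90.8 CPM (median 35.7) at 2 months, 34.7 to 63.1 (median 47.9) at 6 months, 32 to 50.7 (median 37.8) at 12 months, 58.9 to 92.6 (median 67.1) at 18 months and 38.1 to 64.7 (median 56.9) at 24 months. It was 0.68 ± 0.22 log2 higher at 18 months (edgeR adjusted p = 0.0309), while male 2-month replicate 3, at 90.8 CPM, lay within the 18-month range. With that library left out of the linear fit, Plxnd1 and Sema6b were called as rising beside Plxna2 and Sema4c.

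Sema3b (chromosome 9, 107597674 to 107609229), a secreted semaphorin, stood at 10.3 to 22.9 CPM (median 13.7) at 2 months, 1.29 to 13 (median 3.87) at 6 months, 3.31 to 11.1 (median 6.11) at 12 months, 2.14 to 6.98 (median 4.28) at 18 months and 4.14 to 18.4 (median 6.8) at 24 months. All 6 libraries of 18 months lay below those of 2 months (-1.76 ± 0.45 log2, edgeR adjusted p = 0.00705). Reads outside genes were highest at 18 months, and with their share as a covariate the 18-month differences were 0.93 ± 0.40 log2 for Plxna2 (adjusted p = 0.333) and -0.67 ± 0.74 log2 for Sema3b (adjusted p = 0.815). With this covariate the 18-month calls over all genes fell from 18.8% to 1.27%. The other members called at 18 months are not given under it here. Genes of 10 kb or more of exon had a median 18-month difference of 0.31 log2 and genes under 2 kb one of -0.03 log2. Plxna2 has the longest exons of the calls (17174 bases) and Efna1 the shortest (1830 bases). With long-gene share as a covariate, the 18-month difference of Plxna2 was 0.64 ± 0.19 log2 (adjusted p = 0.017), and that of Sema7a 0.96 ± 0.19 log2 (adjusted p = 0.000852).

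Departure from a straight line in age was called for 8 of 46 members, against 17.7% of all genes. They were 4 of 9 plexins (Plxna1, Plxna2, Plxna4 and Plxnb2) and 4 of 18 semaphorins (Sema3b, Sema3c, Sema6d and Sema7a), and no ephrin or Eph receptor. Plxna1, Plxna4 and Plxnb2 were lowest in median at 6 or 12 months, and Plxna2 highest at 18 months. Without the 3 female libraries of 6 months 4 members were called (Plxna2, Plxnb2, Sema3b and Sema7a), against 9.5% of all genes. The calls of the other 4 were lost, with edgeR adjusted p-values of 0.0594 for Plxna1, 0.0615 for Sema6d, 0.185 for Sema3c and 0.451 for Plxna4. Of the 8, Plxnb2, Sema6d and Sema7a were called in all 30 fits that left out 1 library. Plxna4 lost its call in 3 of those fits, Plxna2 in 7, Sema3b in 9 and Plxna1 in 13. In the 11 other alternatives Sema7a kept its call throughout. Plxnb2 lost its call in 2, with the mural markers as a covariate and without the 2-month libraries (edgeR adjusted p up to 0.244). Sema6d lost its call in 3: long-gene share as a covariate, and without the 2-month or the 3 female 6-month libraries (edgeR adjusted p up to 0.144).

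Sema3c (chromosome 5, 17574281 to 17730268), the most abundant semaphorin, stood at 932 to 1251 CPM (median 1081) at 2 months, 359.8 to 1058 (median 779.8) at 6 months, 809 to 1361 (median 1167) at 12 months, 937 to 1222 (median 1049.8) at 18 months and 788 to 917 (median 886) at 24 months. The 6-month range was the widest, and the 24-month libraries all lay below those of 2 months. Its slope was -0.04 ± 0.20 log2 (edgeR adjusted p = 0.924) and its 24-month difference -0.32 ± 0.19 log2 (adjusted p = 0.363), with a departure from the line at adjusted p = 0.0429. That departure lost its call in 19 of 30 fits that left out 1 library (adjusted p 0.0157 to 0.12), with reads outside genes as a covariate (adjusted p = 0.0929) and without the 3 female libraries of 6 months (adjusted p = 0.185). Without those 3 libraries the 24-month difference was -0.33 ± 0.09 log2 (adjusted p = 0.0258). They enter the spread estimated over all ages. Sema6a (chromosome 18, 47235598 to 47368870), a transmembrane ligand of Plxna2 and Plxna4, stood at 112 to 192 CPM (median 148) at 2 months, 64.7 to 149 (median 110.4) at 6 months, 95 to 140.1 (median 106) at 12 months, 107 to 159.9 (median 149) at 18 months and 95.5 to 142 (median 114) at 24 months. It had no call by age in the fit of 30 libraries (24 months -0.40 ± 0.17 log2, adjusted p = 0.144), and was lower at 24 months without the 3 female libraries (-0.41 ± 0.13 log2, adjusted p = 0.0416).

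Sex over all ages gave no call. By edgeR 0 of 46 members differed between females and males, with 3 at an unadjusted p under 0.05 and 0 by DESeq2, against 0.101% of all genes (17 genes). The slope differed between the sexes for 0 of 46, with 1 at an unadjusted p under 0.05 (Sema4c) and 0 by DESeq2, against 0% of all genes. Within 6 months the sexes did differ, by a test added after the data were seen: 8 of 46 members were called, against 11.3% of all genes. Sema7a and Sema3b were higher in the females, and Sema3c, Sema6a, Sema6d, Sema4c, Ephb4 and Plxna4 lower.

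Sema3c stood at 1021, 1046 and 1058 CPM in the 3 males of 6 months and at 539, 359.8 and 409.5 CPM in the 3 females. The groups were far apart (-1.26 ± 0.14 log2, female over male, edgeR adjusted p = 3.72e-06), and the females lay below every other library of the series. Sema7a stood at 61.5, 84 and 72.3 CPM in the males and at 132, 121 and 159 CPM in the females, the highest of the series (0.92 ± 0.18 log2, adjusted p = 0.00131). Sema6d stood at 21.6, 30.5 and 30.5 CPM in the males and at 13.1, 5.83 and 10.8 CPM in the females (-1.47 ± 0.31 log2, adjusted p = 0.00283). For these 3 genes the sex difference itself differed between ages, by the joint age-by-sex terms, which were called in 3 of 46 members against 6.26% of all genes. The sexes also lay apart in the opposite direction, without overlap, for Sema7a at 18 months and for Sema3c at 12 months.

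The other 5 differences at 6 months were -0.88 ± 0.20 log2 for Sema6a, -0.69 ± 0.21 for Sema4c, -0.84 ± 0.22 for Ephb4, -1.16 ± 0.32 for Plxna4 and 1.83 ± 0.53 for Sema3b. Their edgeR adjusted p-values ran from 0.00477 to 0.03. Ephb4 stood at 234 to 254 CPM in the 3 males and at 154, 132 and 127 CPM in the females, with no overlap. Sema3b stood at 4.48, 1.29 and 2.33 CPM in the males and at 12.7, 13 and 3.26 CPM in the females, 1 of which lay within the male range. With the share of counts in long genes as a covariate the calls over all genes fell from 11.3% to 0.374%, and 1 of the 8 members was called: Sema3c at -0.97 ± 0.16 log2 (adjusted p = 0.00454), while Sema7a stood at 0.91 ± 0.24 log2 (adjusted p = 0.0892). Without male 6-month replicate 3, 4 of the 8 were called (Sema3c, Sema6a, Sema6d and Sema7a), against 5.02% of all genes. Choroid plexus markers also differed, with 3 of 5 higher in these females and sums of 1108 to 5344 CPM against 385 to 888 CPM in the males, and their part in the result was not tested.

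**Figure D4:**
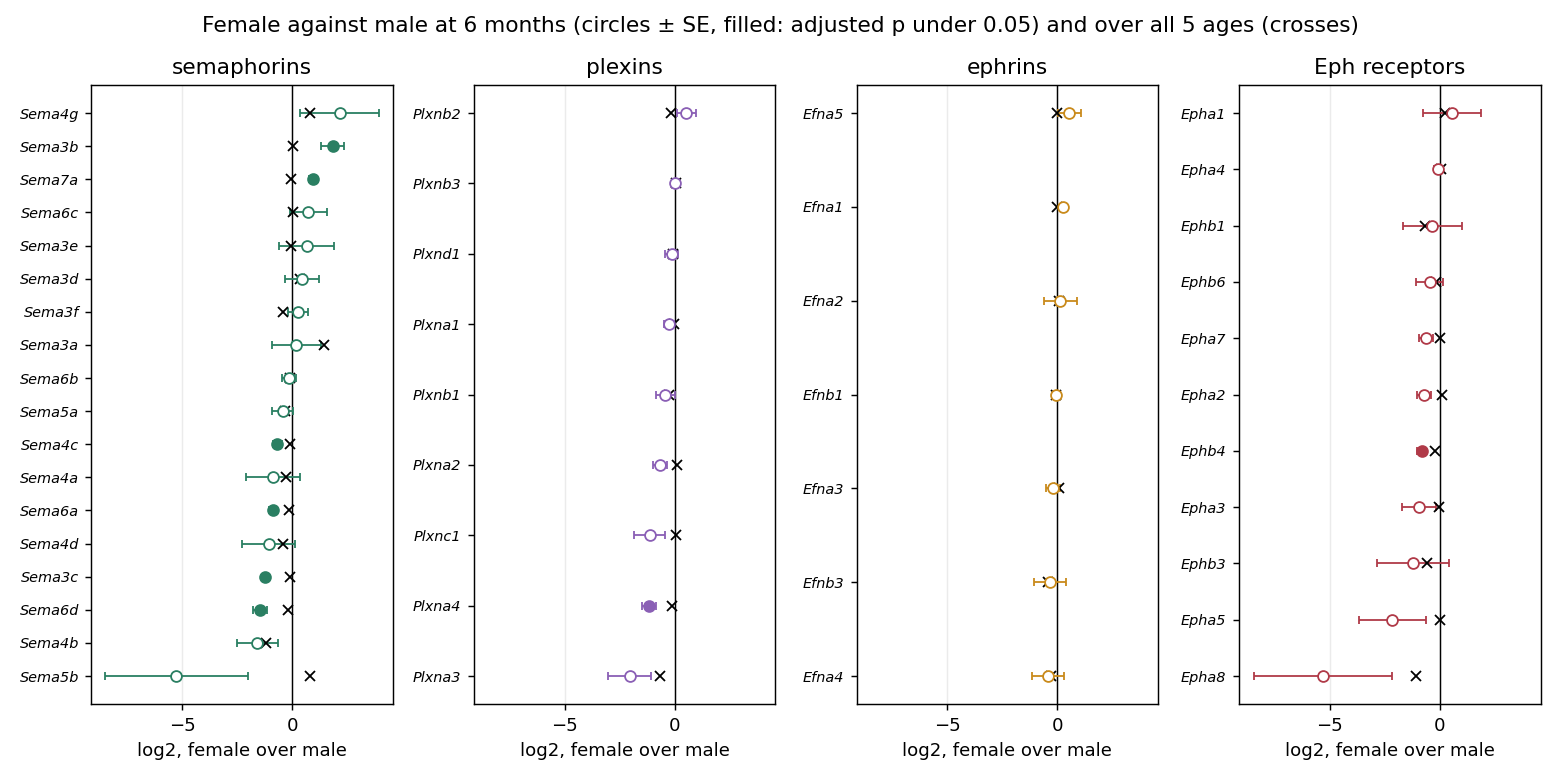
Log2 difference of female over male at 6 months (circles with standard errors, filled where the edgeR adjusted p was under 0.05) and over all 5 ages (crosses) for the 45 protein-coding members tested. Sema3c (-1.26), Sema6d (-1.47) and Sema7a (0.92) differ at 6 months, and their crosses lie near 0.

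Summed per kb, ligands exceeded receptors in each of the 30 libraries. The 26 ligands held 300.4 to 438 CPM per kb and the 23 receptors 49.2 to 118 CPM per kb, a ratio of 3.25 to 6.82. The ratio ran from 3.71 to 5.83 at 2 months (median 4.78), from 4.17 to 6.82 at 6 months (median 5.43), from 4.08 to 6.47 at 12 months (median 5.40), from 3.25 to 4.38 at 18 months (median 4.21) and from 3.67 to 4.54 at 24 months (median 4.16). The 18- and 24-month libraries overlapped the lower part of the 2-month range, and the 3 highest libraries of 6 months, at 5.91 to 6.82, were the females. These ratios are descriptions, with no test.

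Semaphorins over plexins gave 6.95 to 9.15 at 18 months, mostly below the 8.75 to 15.1 at 2 months, and ephrins over Eph receptors gave 1.75 to 2.80 at 18 months and 2.09 to 3.53 at 2 months. Plexins summed to 21.9 to 31.3 CPM per kb at 18 months and 12.9 to 28.1 at 2 months, with male 2-month replicate 3 the highest of its age. Ephrins summed to 154.6 to 197 CPM per kb at 2 months and 123 to 159.9 at 24 months. Efna1 made up 83.6 to 91.9% of the summed ephrin CPM per kb. Sema3c made up 43.6 to 80.9% of that of the semaphorins and Ephb4 71.7 to 88.3% of that of the Eph receptors, so the sums per kb follow these 3 genes.

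**Figure D5:**
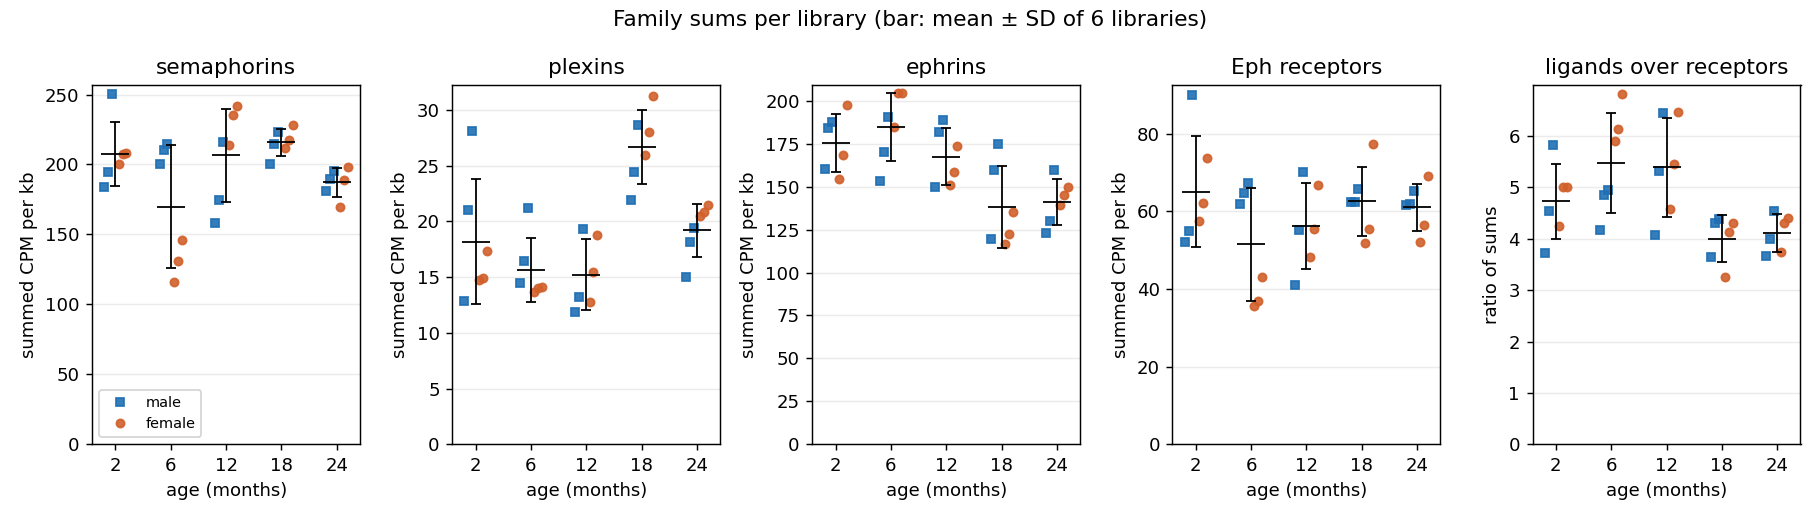
Summed CPM per kb of each family and the ratio of ligands to receptors in each library by age, males as squares and females as circles spread sideways, with the mean and SD of 6 libraries. The ratio lies between 3.25 and 4.54 at 18 and 24 months and reaches 6.82 in a female library of 6 months.

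Of the antisense RNAs, Plxna4os1 was tested and had a slope of -0.46 ± 0.36 log2 (edgeR adjusted p = 0.442) at 0.68 to 6.65 CPM. Plxna4os3 shares 110 exon bases with Plxna4, which without strand cannot be told apart.

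Other genes of the pathways were followed by 3 lists. Their slope counts stand against 5.72% of all genes called as rising and 5.22% called as falling. They come from the fit of 30 libraries with sex alone as a covariate, and the alternatives are not given here. With reads outside genes as a covariate, slope calls over all genes fell from 10.9% to 2.39%. Of 12 co-receptors, 1 rose and 0 fell, with a median slope of 0.22 log2. The riser was L1cam, an adhesion molecule that takes part in class 3 semaphorin signals, at 3.12 ± 1.94 CPM (SD, n = 6) at 2 months, 14.4 ± 4.82 at 18 months and 14.4 ± 3.92 at 24 months (slope 2.14 ± 0.40 log2, edgeR adjusted p = 0.000631). Of 32 tested genes of semaphorin-plexin signalling, 1 rose and 2 fell, with a median slope of 0.02 log2. Fyn, a Src-family kinase, fell, with 192 ± 24.5 CPM at 2 months and 118.7 ± 5.05 CPM at 24 months (slope -0.60 ± 0.11 log2, edgeR adjusted p = 0.000679), with no overlap between the 2 ages. Rras2, a Ras-like GTPase, also fell (slope -0.44 ± 0.14 log2, adjusted p = 0.0336), and Sh3bp1, a GTPase-activating protein for Rac, rose by 1.10 ± 0.17 log2 (adjusted p = 8.33e-05), from 6.19 ± 1.38 CPM to 12.2 ± 4.04 CPM. Of 28 tested genes of Eph-ephrin signalling, Pik3r1, a regulatory subunit of PI3 kinase, rose (0.56 ± 0.14 log2, edgeR adjusted p = 0.0111) and Nck1, an adaptor, fell (-0.30 ± 0.10 log2, adjusted p = 0.0456), with a median slope of -0.07 log2. At 6 months 3 of the 12 co-receptors, 2 of the 32 and 8 of the 28 were lower in females, against 7.99% of all genes, and 0, 2 and 1 were higher, against 3.34%. With long-gene share as a covariate, the 6-month sex calls over all genes fell from 11.3% to 0.374%. The counts of the 3 lists under that covariate are not given here.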

How the data were processed

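Per the labels' protocols, cDNA came from the SMART-Seq v4 kit and libraries from Nextera XT, which keep no strand and add no molecular identifiers. Of the 30 libraries 24 were paired-end and 6 single-end on another instrument; the sources used here do not say which, so instrument entered no model. The authors deposited whole-number read counts per gene and library, not normalized, and the tools listed in the submitters' processing notes are STAR 2.5.2b, HTSeq, FastQC 0.11.4 and MultiQC, with GRCm38 and mm10 as builds. The column that ignores strand was used, and rows without a gene did not enter library sizes (2.5 to 6.26% unmapped, 8.64 to 13.3% at several places, 3.82 to 13.1% outside genes and 3.61 to 4.21% over several genes). Of 48795 gene IDs, 41341 were found in the table of gene names as written, 48349 after the version was dropped and 48435 the GENCODE M21 annotation, which gave exon lengths for all 52 members. Intervals and limits cover counting error only, and PCR copies are counted.

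Counts were fitted with edgeR 4.0.16 (R 4.3.3; TMM, filterByExpr by age, robust quasi-likelihood), with 16844 genes kept and 31951 set aside. Age in months with sex gave the slope, age as a factor the contrasts with 2 months, and joint polynomial terms the departure from a line. Adjustment was Benjamini-Hochberg over all genes kept, with a threshold of 0.05. DESeq2 1.42.0, RLE scaling, other filters, covariates (reads outside genes, marker scores, long-gene share), ages or libraries left out and each sex alone were the alternatives. Of 75 replicate pairs none agreed within sampling noise (chi-square per degree of freedom 15.96 to 197). Values by sample are given for members called in the slope or another planned test and for the 3 highest per family in CPM per kb; members called in other contrasts were added after their values were seen. The members, lists and tests were chosen with earlier results of these data known. The test within 6 months, the long-gene covariate and the fits without the female 6-month libraries were added after seeing the data.

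Marker lists gave, as rising and falling on the slope, 1 and 1 of 10 tested for endothelium, 4 and 0 of 10 for pericytes, 0 and 0 of 5 for smooth muscle, 0 and 0 of 6 for fibroblasts, 0 and 3 of 7 for astrocytes, 0 and 0 of 7 for oligodendrocytes, 0 and 0 of 6 for their precursors, 0 and 0 of 7 for neurons and for microglia, 0 and 3 of 5 for choroid plexus, 1 and 0 of 7 for arterial and 3 and 1 of 6 for venous endothelium.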

Additional observations from a re-analysis of the deposited data

Results flagged for a closer look

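In 4 of the 85 groups of 6 libraries checked (17 named members at 5 ages), 1 library lay far from the others of its age, where chance gives about 1 in 20 groups. Male 2-month replicate 3 was far above the rest in Plxna2 (132.1 CPM, the next 85.47) and in Plxnd1 (90.78 CPM, the next 49.31). It was also the highest of the 30 libraries in summed endothelial markers (20530 CPM, the next 19329). Without it the rising members numbered 4 (Plxna2, Plxnd1, Sema4c and Sema6b) in place of 2. At 18 months replicate 3 was far below the rest in Efna3 (3.047 CPM, the next 4.644), and replicate 4 far above them in Plxna4 (8.344 CPM, the next 6.692).

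The difference between females and males differed between ages for 3 members by the joint age-by-sex terms of edgeR, a test of the difference itself. The adjusted p was 0.000136 for Sema3c, 0.00138 for Sema7a and 0.0353 for Sema6d. In all 3 the females of 6 months lay apart from the males of their age, but the terms cover every age. In 2 of the 3 the sexes also lay apart at another age, in the opposite direction. Sema7a at 18 months stood at 61, 91.2 and 73.2 CPM in males and 29.6, 50.8 and 38.3 CPM in females. Sema3c at 12 months stood at 809, 1148 and 919 CPM in males and 1185, 1361 and 1344 CPM in females. The females of 6 months held the lowest share of counts in long genes of their age. With that share as a covariate the adjusted p was 0.0775 for Sema3c, 0.117 for Sema7a and 0.808 for Sema6d.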

How the results depend on the processing

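The count of rising members (2) was 2 with DESeq2, 1 with RLE scaling, no filter, mural markers as a covariate or without the 3 female 6-month libraries, and 0 with reads outside genes or long-gene share as a covariate, without the 18-month libraries or in males alone; leaving out 1 library gave 0 to 4. The falling count (1) was 0 with reads outside genes or in males alone and 2 with long-gene share (Efna1 and Sema6a), and 1 with any library left out. The 24-month count (2) was 1 with no filter, reads outside genes or mural markers, 4 without the 3 female 6-month libraries (Efna1, Sema3c, Sema6a and Sema7a), and 1 to 2 with 1 library left out. Departures from a line (8) numbered 5 with no filter, 4 with reads outside genes, long-gene share or without the 3 female 6-month libraries, 3 without the 2- or the 18-month libraries, 10 with DESeq2, and 4 to 9 with 1 library left out. The 6-month sex calls (8) numbered 1 with long-gene share and 4 to 8 with 1 library left out. Sex and slope-by-sex counts were 0 in each alternative run. No called member changed sign in any of these, and of the 43 uncalled slopes 30 did in at least 1. Low counts limit members under 1 CPM. No paired analysis was possible because the labels give no replicate numbers: those used here follow the order of deposit, only name a library and pair none.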
